A study of Mus musculus with 18 samples.

Results

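Ggt1 and 9 genes of glutathione synthesis and redox metabolism (Gclc, Gclm, Gss, Gsr, Gpx1, Gpx2, Gpx3, Slc7a11 and Nfe2l2) were followed in the mouse lacrimal gland (LG), 10 of the 54232 genes in the count table. Ggt1 was chosen by its own measured values in these mice, because it rose with age in BALB/c and not in NOD.H-2b, so its values are described here without any test. The other 9 genes were chosen for their place in the pathway and were tested. RNA of 18 male mice was sequenced, 1 LG per mouse and 3 mice per group, from BALB/cJ (BALB/c) and NOD.B10Sn-H2b/J (NOD.H-2b) at 2, 4 and 6 months (2M, 4M and 6M). NOD.H-2b carries the NOD background with the H2b haplotype in its MHC region and is a model of Sjögren's syndrome, and BALB/c served as the healthy control although it does not share that background, so a strain difference includes every difference between the 2 backgrounds. No mouse was treated.

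Glutathione, the main small thiol of cells, is built from glutamate, cysteine and glycine. Cystine enters through the exchanger xCT (Slc7a11), glutamate-cysteine ligase with its catalytic subunit (Gclc) and modifier subunit (Gclm) makes the first bond, and glutathione synthetase (Gss) adds the glycine. Gamma-glutamyltransferase 1 (Ggt1) stands on the outer face of epithelial cells and starts the breakdown of secreted glutathione, which returns its amino acids to the cell. Glutathione peroxidases (Gpx1, Gpx2, Gpx3) oxidise glutathione while they reduce peroxides, glutathione reductase (Gsr) restores it with NADPH, and NRF2 (Nfe2l2) is the transcription factor best known for inducing genes of this pathway.

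The libraries held 49480781 to 103936830 counts per mouse. Of the LG's own markers, the summed acinar list (Scgb2b7, Scgb2b24, Aqp5, Pigr and Bhlha15) ran from 85724 to 115626 CPM (counts per unit of library size, after TMM scaling) across the BALB/c mice and from 59782 to 90420 CPM across the NOD.H-2b mice. Lists of other cells also moved with strain and age. The summed B cell list (6 genes) lay between 0.0353 and 2.41 CPM in BALB/c. In NOD.H-2b it lay between 1.59 and 22.7 CPM at 2M and rose to a range of 169 to 339 CPM by 6M. At most 3 counts were found in every BALB/c 2M mouse for 5 of those 6 genes, Cd79a and Cd79b among them. The T cell list spanned 0.159 to 3.01 CPM among BALB/c mice and 4.40 to 63.6 CPM among NOD.H-2b mice, and the macrophage list 31.3 to 77.0 CPM and 117 to 223 CPM. The epithelial structure list (32 genes, such as Epcam and Krt8) summed to 2916 to 3212 CPM over the BALB/c mice. The NOD.H-2b sums were 2811 to 3150 CPM at 2M, 2095 to 2601 CPM at 4M and 1776 to 2166 CPM at 6M. Its part in the results was not tested, and in a whole gland fewer cells of a type and less RNA per cell cannot be told apart. Strain differences are therefore also given relative to this epithelial list, by scaling each mouse to the list's median gene, an alternative chosen after seeing the data. The planned form scaled to the list's geometric mean, and its values are given beside some of these.

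Ggt1 lies at chr10:75561604-75586200 on the plus strand (GRCm38), with no overlapping gene in GENCODE M21. In BALB/c its level was 10.7, 10.7 and 12.1 CPM in the 3 mice at 2M, then 27.8, 23.1 and 22.3 CPM at 4M and 32.7, 33.7 and 38.7 CPM at 6M. The 3 ages did not overlap. In NOD.H-2b the mice stood at 4.57, 4.58 and 4.51 CPM at 2M, at 3.69, 5.86 and 5.25 CPM at 4M and at 3.23, 3.27 and 4.33 CPM at 6M. Every NOD.H-2b mouse was thus below every BALB/c mouse of any age.

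**Figure D1:**
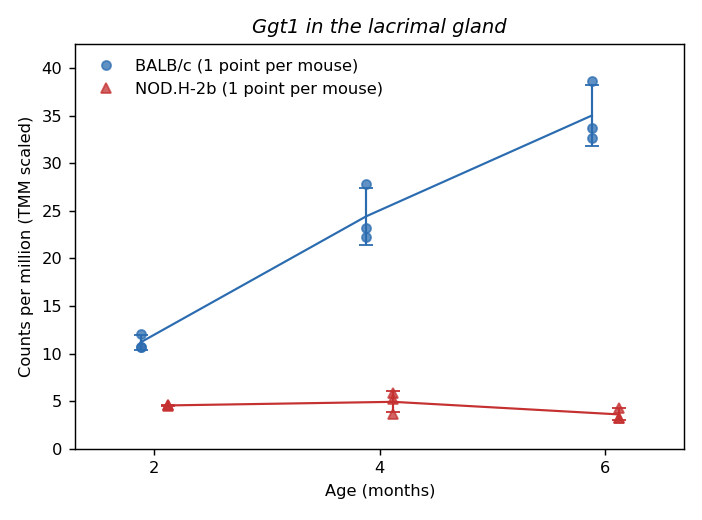
Ggt1 level in CPM (TMM scaled) on a linear axis from 0 against age in months. Each point is 1 mouse (3 per group), and lines with bars give the mean and SD. BALB/c means run from 11.2 to 24.4 to 35.01 CPM, while NOD.H-2b means stay between 3.61 and 4.93.

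Ordered by mean, Ggt1 was highest in BALB/c 6M (35.01 ± 3.20 CPM, SD, n = 3), followed by BALB/c 4M (24.4 ± 2.99), BALB/c 2M (11.2 ± 0.797), NOD.H-2b 4M (4.93 ± 1.12), NOD.H-2b 2M (4.55 ± 0.0371) and NOD.H-2b 6M (3.61 ± 0.624). The NOD.H-2b 4M range overlapped both of the other NOD.H-2b groups, so these neighbours in the order did not differ beyond their spread, whereas the lowest 2M mouse (4.51 CPM) stood above the highest 6M mouse (4.33 CPM). The BALB/c mean was 2.45 times the NOD.H-2b mean at 2M, 4.95 times at 4M and 9.70 times at 6M. The fitted strain difference was −1.25 ± 0.09 on the log2 scale (SE) at 2M, −2.30 ± 0.17 at 4M and −3.24 ± 0.13 at 6M. At 2M the summed epithelial lists of the strains overlapped, while the summed acinar list was already apart (101020 to 106718 CPM for BALB/c and 85450 to 90420 CPM for NOD.H-2b). The part of either list in the Ggt1 difference was not tested. Relative to the median of the epithelial list this difference was −1.33 ± 0.10, −1.89 ± 0.15 and −2.73 ± 0.14, lower at all 3 ages as well.

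With age, the fitted log2 change of Ggt1 from 2M to 6M was 1.64 ± 0.08 in BALB/c, made of 1.13 ± 0.09 from 2M to 4M and 0.51 ± 0.09 from 4M to 6M. In NOD.H-2b it was −0.36 ± 0.15 from 2M to 6M, and 0.27 ± 0.18 relative to the epithelial list. The difference between the strains in this change was −1.98 ± 0.20, or −1.35 ± 0.18 relative to the epithelial list. These values describe the pattern for which the gene was selected.

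Divided by exon length, the levels can be set against those of the other genes. In BALB/c 2M Ggt1 stood at 3.28 ± 0.234 CPM per kb (SD, n = 3), below Gclm (3.89 ± 0.226) and above Gss (2.75 ± 0.068). By 6M it had become the third of the 10 genes in BALB/c with 10.3 ± 0.938 CPM per kb, after Gpx1 (86.0 ± 4.18) and Gsr (14.6 ± 0.710). In NOD.H-2b 6M it was the ninth with 1.06 ± 0.183 CPM per kb, and only Gpx2 (0.223 ± 0.0696) was lower.

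The transcripts most like Ggt1 over the 18 mice were Fam213a (Pearson r = 0.981), a peroxiredoxin-like gene, Lrrc28 (r = 0.980), Trp53bp2 (r = 0.979), Chmp3 (r = 0.974), a subunit of the ESCRT-III complex, and Syne2 (r = 0.972), which codes for a nesprin of the nuclear envelope. Among the pathway genes r with Ggt1 was 0.85 for Gss, 0.82 for Gpx1, 0.79 for Gsr, 0.45 for Gclm, 0.09 for Slc7a11, −0.12 for Gclc and −0.43 for Nfe2l2. These correlations describe log2 CPM in 18 mice of 6 groups that share strain, age and library scaling, so they largely reflect the differences between groups.

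NRF2 is known to bind the antioxidant response element, whose core was searched as TGACNNNGC on both strands of RefSeq promoter windows (GRCm38.p6), from 250 bases before to 50 after a transcription start. Windows were matched for 8 of the 10 genes, and Gclc and Gsr were not matched. The core was found in 5 of the 11 windows, and 12.4% of all 32851 windows of the same length hold it. Because 4 of the 11 windows belong to Ggt1, the windows are not independent of each other, and enrichment was not tested. The matches belong to Nfe2l2, Gclm and 3 of the 4 Ggt1 windows. They are shown because these genes differed in direction between the strains at 6M with TMM scaling, although that of Gclm turned relative to the epithelial list. The core is in capitals:
Nfe2l2, chr2:75704885-75704913, minus strand: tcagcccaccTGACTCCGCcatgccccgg
Gclm, chr3:122245413-122245441, plus strand (core on the other strand): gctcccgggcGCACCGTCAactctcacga
Ggt1, chr10:75564163-75564181, plus strand: cttgggcatcTGACACAGC
Ggt1, chr10:75568616-75568644, plus strand (core on the other strand): gaagggaggaGCTGGGTCActgctgggga
Ggt1, chr10:75571467-75571495, plus strand: gtcacaagccTGACGCTGCgcctccttgc

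These matches are letters in a window and were not measured as bound sites. No value here shows NRF2 binding or activity, since the data are RNA levels.

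Among the 9 tested genes the strain difference touched Gss, Gpx1, Gsr and Gclm, all lower in NOD.H-2b, and Nfe2l2, which was higher at 6M. Genes were called at an FDR (Benjamini-Hochberg adjusted p of edgeR's quasi-likelihood test over all genes tested) under 0.05. At 2M, 2 of the 9 were lower (17.2% of all genes tested were lower) and 0 higher (22.5% of all genes). At 4M, 4 were lower (19.2% of all genes) and 0 higher (23.4%), and at 6M, 4 were lower (25.8%) and 1 higher (28.6%). The count of lower genes at 2M lies near the share over all genes. At 4M and 6M the total called lies near the share of all genes called in either direction. These directions depend on the scaling: relative to the median of the epithelial list, 0 were higher and 3 lower at 2M, 3 higher (Gclc, Nfe2l2 and Slc7a11) and 0 lower at 4M, and 3 higher (Gclc, Gpx3 and Nfe2l2) and 1 lower (Gss) at 6M. By the list's geometric mean, 0 were higher and 6 lower at 2M, 1 (Gclc) and 0 at 4M, and 2 (Gpx3 and Nfe2l2) and 1 (Gss) at 6M. The median log2 fold change of the 9 genes was −0.09, −0.14 and −0.26 at 2M, 4M and 6M, beside 0.01, 0.00 and −0.00 over all genes.

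**Figure D2:**
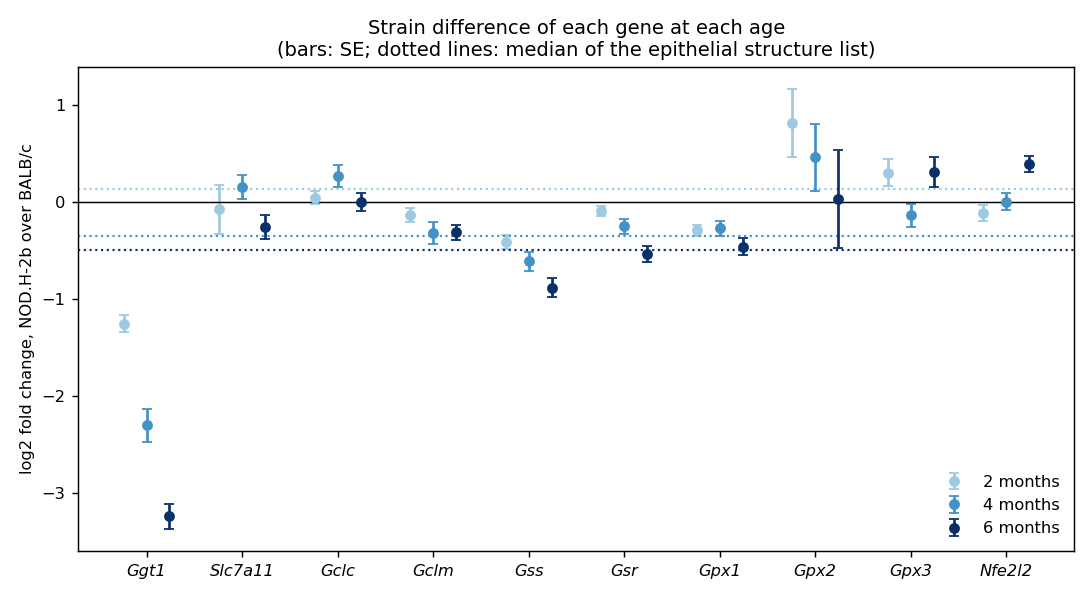
Strain difference (log2 fold change of NOD.H-2b over BALB/c, with SE) of the 10 genes at 2, 4 and 6 months. Dotted lines mark the median of the epithelial structure list at each age (0.13, −0.35 and −0.50). Gss lies below its line at every age, while Gsr and Gpx1 at 6M (−0.54 and −0.46) lie near the line of that age.

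Gss, the enzyme that completes glutathione, showed the largest strain difference among the calls. It lies at chr2:155563181-155592810 on the minus strand, and its exons overlap Acss2 and 2 antisense genes on the other strand. Whether the counting used strand was not given in the sources used here, so reads of these genes cannot be told apart from those of Gss. In BALB/c the mice held 16.1, 16.7 and 16.0 CPM at 2M, 15.3, 16.8 and 15.2 CPM at 4M and 16.5, 17.0 and 15.0 CPM at 6M. In NOD.H-2b they held 12.5, 11.3 and 12.0 CPM at 2M, 9.66, 10.3 and 11.0 CPM at 4M and 7.84, 8.87 and 8.99 CPM at 6M. The strains did not overlap at any age, and the NOD.H-2b groups stepped down with age without overlap. The log2 fold change was −0.41 ± 0.07 at 2M (edgeR FDR = 0.00082), −0.61 ± 0.09 at 4M (edgeR FDR = 0.00065) and −0.88 ± 0.10 at 6M (edgeR FDR = 5.8e-05). All 3 calls stood when any mouse was left out. Relative to the epithelial list the difference was −0.49 ± 0.07 at 2M (edgeR FDR = 0.00036), −0.19 ± 0.11 at 4M (edgeR FDR = 0.18) and −0.37 ± 0.12 at 6M (edgeR FDR = 0.019), so the 4M call was lost.

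Gsr, which restores oxidised glutathione, lies at chr8:33652523-33698163 on the plus strand. The BALB/c mice had 38.6, 37.9 and 39.8 CPM at 2M and 41.6, 38.0 and 41.1 CPM at 6M. The NOD.H-2b mice had 37.1, 34.6 and 34.4 CPM at 2M and 24.8, 27.8 and 28.6 CPM at 6M. Each NOD.H-2b mouse was below each BALB/c mouse of its age at 2M, 4M and 6M. The difference did not pass at 2M (−0.09 ± 0.05, edgeR FDR = 0.20) and passed at 4M (−0.25 ± 0.08, edgeR FDR = 0.028) and 6M (−0.54 ± 0.08, edgeR FDR = 0.00034). The 4M call was lost without BALB/c 4M replicate 1 (edgeR FDR = 0.081), BALB/c 4M replicate 2 (0.10) or NOD.H-2b 4M replicate 1 (0.061). Against the epithelial list the 2M difference was called (−0.17 ± 0.06, edgeR FDR = 0.047), while it was 0.17 ± 0.10 at 4M and −0.02 ± 0.08 at 6M, both without a call (edgeR FDR = 0.14 and 0.82).

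Gpx1, the abundant cytosolic glutathione peroxidase, lies at chr9:108338903-108340343 on the plus strand. At 2M the BALB/c mice stood at 125, 136 and 122 CPM and the NOD.H-2b mice at 101, 99.2 and 104 CPM, and at 6M at 130, 118 and 123 CPM against 79.5, 87.0 and 97.0 CPM. The strains did not overlap at any of the 3 ages. The log2 fold change was −0.29 ± 0.05 at 2M (edgeR FDR = 0.0011), −0.27 ± 0.08 at 4M (edgeR FDR = 0.020) and −0.46 ± 0.09 at 6M (edgeR FDR = 0.0015). The 4M call was lost without BALB/c 4M replicate 1 (edgeR FDR = 0.064), replicate 2 (0.059) or replicate 3 (0.069). With the epithelial scaling only the 2M difference was called (−0.37 ± 0.06, edgeR FDR = 0.00063), with 0.15 ± 0.07 at 4M and 0.05 ± 0.08 at 6M.

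The subunits of glutamate-cysteine ligase differed from each other. Gclm, the modifier, lies at chr3:122245557-122270732 on the plus strand, where its exons overlap the pseudogene Gm6061 and the transcript Gm17494, so its counts are uncertain by what these share. At 6M its levels were 22.7, 21.7 and 21.5 CPM in BALB/c and 17.5, 17.2 and 17.1 CPM in the NOD.H-2b mice, without overlap. It was lower in NOD.H-2b at 4M (−0.32 ± 0.11, edgeR FDR = 0.041) and 6M (−0.31 ± 0.08, edgeR FDR = 0.0057), while at 2M it stood at −0.13 ± 0.07 (edgeR FDR = 0.15). The 4M call was lost when 10 counts were asked of every sample (edgeR FDR = 0.060), without BALB/c 4M replicate 1 (0.11) or replicate 2 (0.15), or without NOD.H-2b 4M replicate 1 (0.099) or replicate 3 (0.094). Relative to the median of the epithelial list its sign turned, with 0.10 ± 0.12 at 4M and 0.21 ± 0.11 at 6M, and neither was called (edgeR FDR = 0.50 and 0.11). By the list's geometric mean it was called lower at 2M and not called at 4M or 6M.

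Gclc, the catalytic subunit, lies at chr9:77754535-77794485 on the plus strand. It ranged from 25.2 to 33.9 CPM in BALB/c and from 25.7 to 38.7 CPM in NOD.H-2b, with overlap at every age. No strain difference was called by the test used here, with 0.05 ± 0.07 at 2M (approximate 95% interval from the SE −0.08 to 0.18), 0.27 ± 0.11 at 4M (0.05 to 0.49, edgeR FDR = 0.083, called with no filter at 0.042 and in a fit of all 18 mice at 0.036) and −0.00 ± 0.09 at 6M (−0.18 to 0.18). It was higher relative to the median of the epithelial list at 4M (0.69 ± 0.12, edgeR FDR = 0.00096) and 6M (0.52 ± 0.11, edgeR FDR = 0.0024). By the list's geometric mean it was called lower at 2M, higher at 4M and not called at 6M.

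**Figure D3:**
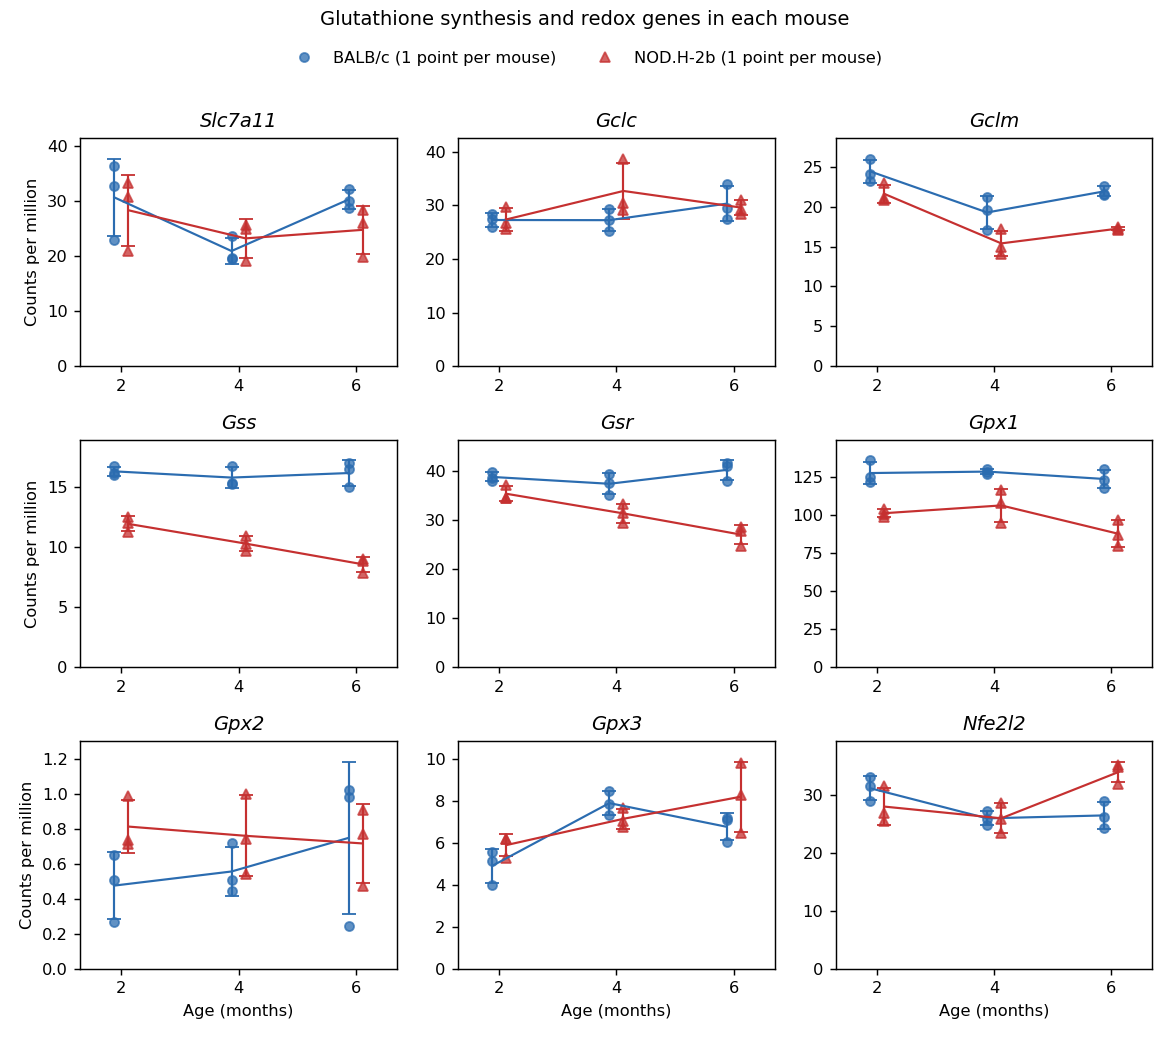
Levels of the 9 tested genes in CPM, each on its own linear axis from 0, against age in months. Points are mice (3 per group), and lines with bars give the mean and SD. Gss and Gsr separate further with age (means of 16.2 against 8.57 and of 40.2 against 27.0 CPM at 6M), and Nfe2l2 lies above BALB/c in NOD.H-2b at 6M (33.9 against 26.4 CPM).

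Nfe2l2 lies at chr2:75675513-75704641 on the minus strand. Its levels at 6M were 24.3, 26.1 and 28.9 CPM in BALB/c and 35.1, 31.9 and 34.8 CPM in NOD.H-2b, while at 2M they were 28.9, 33.0 and 31.5 CPM against 25.5, 26.8 and 31.6 CPM. The strains were apart at 6M and overlapped at 2M and 4M. At 6M it was higher in NOD.H-2b (0.40 ± 0.08, edgeR FDR = 0.0024), a call that also stood relative to the epithelial list (0.92 ± 0.11, edgeR FDR = 7.4e-05), and at 2M the value was −0.11 ± 0.09 (edgeR FDR = 0.34). At 4M it was 0.01 ± 0.09 (edgeR FDR = 0.96), and 0.44 ± 0.14 relative to the median of the epithelial list (edgeR FDR = 0.021). By the list's geometric mean it was called lower at 2M and not called at 4M. The B cell, T cell and macrophage lists were higher in the same NOD.H-2b mice at 6M, and their part in this result was not tested.

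Gpx3, a secreted peroxidase, lies at chr11:54902453-54910377 on the plus strand and ranged from 4.01 to 8.51 CPM in BALB/c and from 5.31 to 9.85 CPM in NOD.H-2b. It overlapped between the strains at each age and was not called (0.31 ± 0.14, −0.14 ± 0.12 and 0.31 ± 0.16 at 2M, 4M and 6M), although relative to the epithelial list it was higher in NOD.H-2b at 6M (0.84 ± 0.20, edgeR FDR = 0.0045). Slc7a11 (chr3:49892526-50443614, minus strand) varied widely between mice of a group, from 22.9 to 36.4 CPM in BALB/c 2M and from 21.0 to 33.3 CPM in NOD.H-2b 2M, and its difference at 6M was −0.26 ± 0.13 (edgeR FDR = 0.11). Relative to the median of the epithelial list it was called higher in NOD.H-2b at 4M (0.59 ± 0.16, edgeR FDR = 0.011), but not by the list's geometric mean. Gpx2, the epithelial peroxidase of the gut, lies at chr12:76792333-76795554 on the minus strand, inside the Fntb locus, and has a pseudogene, Gpx2-ps1. It was found by its Ensembl identifier because its name is blank in the table. With 15 to 65 counts per mouse it was the lowest of the 10 genes, and its difference of 0.82 ± 0.35 at 2M (approximate 95% interval 0.12 to 1.51) was not called (edgeR FDR = 0.090).

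With age, some of the 9 genes were called in BALB/c over each step but none over the whole span. From 2M to 4M, 1 was higher (6.1% of all genes) and 2 were lower (5.01%). Gpx3 rose from 4.01, 5.60 and 5.13 CPM to 7.35, 8.51 and 7.87 CPM (0.69 ± 0.13, edgeR FDR = 0.0044), a call that stood without any one mouse. Gclm fell by 0.34 ± 0.08 on the log2 scale (edgeR FDR = 0.019), a call lost without BALB/c 2M replicate 1 (FDR = 0.053) or replicate 2 (0.083). Nfe2l2 fell by 0.26 ± 0.06 (edgeR FDR = 0.020), a call lost without BALB/c 2M replicate 2 (FDR = 0.10) or replicate 3 (0.075) or BALB/c 4M replicate 1 (0.060), or in a fit of all 18 mice (0.10). From 4M to 6M, 1 gene was higher (0.174% of all genes) and 0 lower (0.132%). This was Slc7a11, which went from 19.7, 19.5 and 23.5 CPM to 28.7, 32.1 and 29.9 CPM (0.52 ± 0.09, edgeR FDR = 0.043). Its call was lost without BALB/c 4M replicate 1 (FDR = 0.12) or replicate 2 (0.13), without BALB/c 6M replicate 1 (0.081) or replicate 2 (0.17), or in a fit of all 18 mice (0.24). From 2M to 6M, 0 of the 9 genes were called by edgeR in either direction (3.48% of all genes were higher and 2.13% lower), and 3511 genes in all had an unadjusted p under 0.05. DESeq2's Wald test called 1 of the 9, no filter gave 2 and leaving out BALB/c 6M replicate 3 gave 2. Gss stood at −0.02 ± 0.08 over this span (approximate 95% interval −0.17 to 0.13) and Gsr at 0.05 ± 0.06 (−0.06 to 0.16).

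In NOD.H-2b more of the 9 genes were called over the whole span than over either step, which was also so over all genes. From 2M to 4M, 0 of the 9 genes were higher (10.3% of all genes) and 1 lower (5.48%), namely Gclm, which went from 21.2, 23.0 and 20.8 CPM to 14.1, 17.2 and 14.9 CPM (−0.49 ± 0.10, edgeR FDR = 0.016). This call was lost without NOD.H-2b 2M replicate 3 (FDR = 0.056). From 4M to 6M edgeR called 0 of the 9 (0.00555% of all genes were higher and 0.0% lower, with 2490 at an unadjusted p under 0.05), DESeq2 called 0 and a fit of all 18 mice called 2. From 2M to 6M, 1 was higher (20.7% of all genes) and 3 were lower (19.4%). The total called lies near the share of all genes called in either direction. Gss fell by 0.49 ± 0.09 on the log2 scale (edgeR FDR = 0.0042), Gsr fell by 0.40 ± 0.08 (edgeR FDR = 0.0041) and Gclm fell by 0.34 ± 0.07 (edgeR FDR = 0.0074), and these calls stood without any one mouse. Scaled to the epithelial list, whose sum also fell, all 3 turned positive, Gss at 0.13 ± 0.11 (edgeR FDR = 0.30), Gsr called higher at 0.22 ± 0.09 (edgeR FDR = 0.044) and Gclm at 0.29 ± 0.12 (edgeR FDR = 0.056). That scaling called 5 of the 9 genes higher and 0 lower over this span, and the geometric mean of the list 6 and 0, with Gsr and Gclm both called higher (edgeR FDR = 0.032 and 0.042). Gpx3 rose (0.46 ± 0.15, edgeR FDR = 0.039), but its call was lost without any of the 3 NOD.H-2b 2M mice (FDR of 0.068, 0.055 and 0.12 for replicates 1, 2 and 3) and without NOD.H-2b 6M replicate 1 (0.13) or replicate 2 (0.070).

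The difference between the strains in the change from 2M to 6M (strain by age) was tested in all 18 mice, and 1 of the 9 genes was higher (7.04% of all genes) and 2 were lower (9.09%). Gss stood at −0.47 ± 0.11 (edgeR FDR = 0.012), Gsr at −0.44 ± 0.10 (edgeR FDR = 0.0068) and Nfe2l2 at 0.52 ± 0.13 (edgeR FDR = 0.012). Each of these calls stood when any of the 18 mice was left out. Scaled to the epithelial list, Gss (0.17 ± 0.12, edgeR FDR = 0.25) and Gsr (0.20 ± 0.09, edgeR FDR = 0.088) turned and were not called, whereas Nfe2l2 was at 1.16 ± 0.18 (edgeR FDR = 0.00026), and in all 5 of the 9 genes were higher and 0 lower. The part of the falling epithelial list and of the rising lymphocyte lists in these values was not tested.

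Ratios of genes within a mouse do not depend on how libraries are scaled, and 3 were tested by a two-sided exact permutation of the strain labels within each age (8000 arrangements, smallest possible p 0.00025), adjusted over the 3. Such ratios can still move with the mix of cells in the gland and, for Gss and Gclm, with reads of overlapping genes. The part of either was not tested. Other pairs of genes were not examined, so how often pairs differ as much is not known. Gss to Gclc, synthetase to ligase, was 0.60 times as high in NOD.H-2b (mean log2 difference −0.74, with −0.45, −0.87 and −0.88 at 2M, 4M and 6M, exact p = 0.00025, adjusted p = 0.00075). The groups did not overlap at any age, with ratios of 0.501 to 0.622 in BALB/c and 0.276 to 0.468 in NOD.H-2b. Gclm to Gclc, modifier to catalytic subunit, was 0.78 times as high (mean log2 difference −0.36, exact p = 0.0005, adjusted p = 0.00075). It overlapped at 2M and was apart at 4M and 6M, where the ratio ran from 0.627 to 0.783 in BALB/c and from 0.386 to 0.616 in NOD.H-2b.

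The ratio of Gpx3 to Gpx1, secreted to cytosolic peroxidase, was 1.42 times as high in NOD.H-2b (mean log2 difference 0.50, exact p = 0.00075, adjusted p = 0.00075). The strains were apart at 2M and 6M and overlapped at 4M, where the log2 difference was 0.14.

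**Figure D4:**
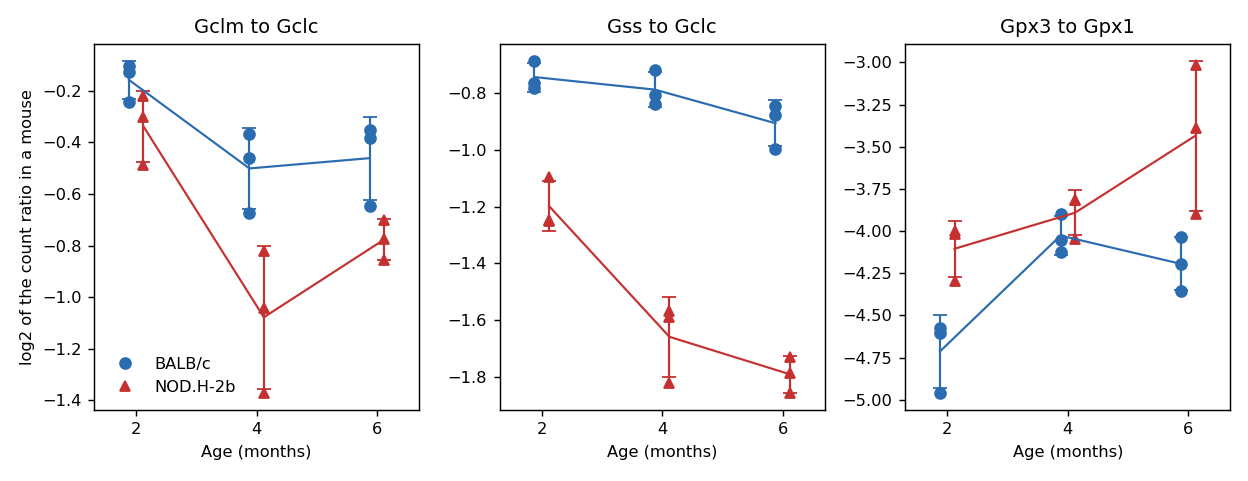
Log2 of the count ratio of 2 genes in each mouse (points, 3 per group) with mean and SD against age in months. The Gss to Gclc ratio is lower in every NOD.H-2b mouse than in every BALB/c mouse, and the other 2 ratios overlap at 1 age each (2M for Gclm to Gclc, 4M for Gpx3 to Gpx1).

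Around these 10 genes, 92 further genes of 6 groups were examined, of which 82 could be tested between the strains. In NOD.H-2b 15 were higher and 28 lower at 2M (22.5% and 17.2% of all genes), 9 and 34 at 4M (23.4% and 19.2%), and 11 and 40 at 6M (28.6% and 25.8%), with medians of −0.05, −0.24 and −0.30 beside 0.01, 0.00 and −0.00 over all genes. The same shares over all genes apply to the counts of each group given next. Relative to the median of the epithelial list, 11 were higher and 33 lower at 2M, 30 and 6 at 4M, and 34 and 8 at 6M. By the list's geometric mean, the planned form, 6 were higher and 53 lower at 2M, 17 and 8 at 4M, and 16 and 14 at 6M. The balance at 4M thus turned under both forms. At 6M it turned under the median and was near even under the geometric mean. For strain by age 2 were higher and 15 lower (7.04% and 9.09% of all genes), or 44 and 2 relative to the list's median and 35 and 2 by its geometric mean. With TMM the total of 17 became 8 without NOD.H-2b 2M replicate 1 and 10 without NOD.H-2b 6M replicate 1.

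Of the 16 genes of thiol recycling and NADPH supply, 0 were higher at any age and 5 were lower at 2M, 6 at 4M and 10 at 6M (list median −0.43 at 6M), beside 17.2%, 19.2% and 25.8% of all genes. Relative to the median of the epithelial list 6 were higher and 3 lower at 6M, and by its geometric mean 2 were higher and 6 lower. Me1, the cytosolic malic enzyme that makes NADPH, ranged from 84.2 to 90.5 CPM in BALB/c 2M and from 29.8 to 34.9 CPM in NOD.H-2b 2M. At 6M the BALB/c mice had 83.2 to 92.1 CPM and the NOD.H-2b mice 12.7 to 19.9 CPM. Its log2 fold change was −1.35 ± 0.07 at 2M (edgeR FDR = 4.5e-08) and −2.34 ± 0.15 at 6M (edgeR FDR = 3.8e-06), and it was also lower relative to the epithelial list (−1.83 ± 0.11 at 6M, edgeR FDR = 1e-06). Idh1, another cytosolic source of NADPH, was at −0.40 ± 0.07 at 2M (edgeR FDR = 0.00079) and −0.72 ± 0.08 at 6M (edgeR FDR = 4.3e-05), a call lost relative to that list's median (−0.20 ± 0.08, edgeR FDR = 0.058). By the list's geometric mean the 6M call of Idh1 stood (−0.40 ± 0.11, edgeR FDR = 0.0056).

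Glutathione transferases join glutathione to foreign or reactive compounds. Their list here also holds the glyoxalases Glo1 and Hagh, which are not transferases and were both called lower at 6M. Of the 22 genes of this list tested, 5 were higher and 8 lower at 2M, 2 and 10 at 4M, and 3 and 11 at 6M (list median −0.46 at 6M). The share higher at 2M is that over all genes. Relative to the median of the epithelial list 7 were higher and 3 lower at 6M, and by its geometric mean 3 were higher and 5 lower. These genes share sequence within their families, so reads may be split between them. Gstm1 stood at 32.4 to 33.2 CPM in BALB/c 2M and at 16.1 to 17.6 CPM in NOD.H-2b 2M (−0.90 ± 0.06, edgeR FDR = 6.2e-07), and at −1.31 ± 0.08 at 6M (edgeR FDR = 1.1e-06, and −0.79 ± 0.12 relative to the epithelial list). Gstt1 was lower by a similar size at each age (−0.85 ± 0.11, −0.92 ± 0.29 and −0.88 ± 0.11), and relative to that list's median its calls at 4M and 6M were lost (edgeR FDR = 0.076 and 0.057). By the list's geometric mean these 4M and 6M calls stood (edgeR FDR = 0.032 and 0.014). In the other direction, Hpgds, the prostaglandin D synthase of haematopoietic cells, was higher at each age (1.52 ± 0.17 at 2M, edgeR FDR = 3.2e-05, and 1.51 ± 0.23 at 6M, edgeR FDR = 0.00043). Mgst2, a microsomal transferase of leukotriene synthesis, was nearly absent from BALB/c, with 0 to 0.0701 CPM, and reached 0.84 to 1.58 CPM in NOD.H-2b 6M.

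**Figure D5:**
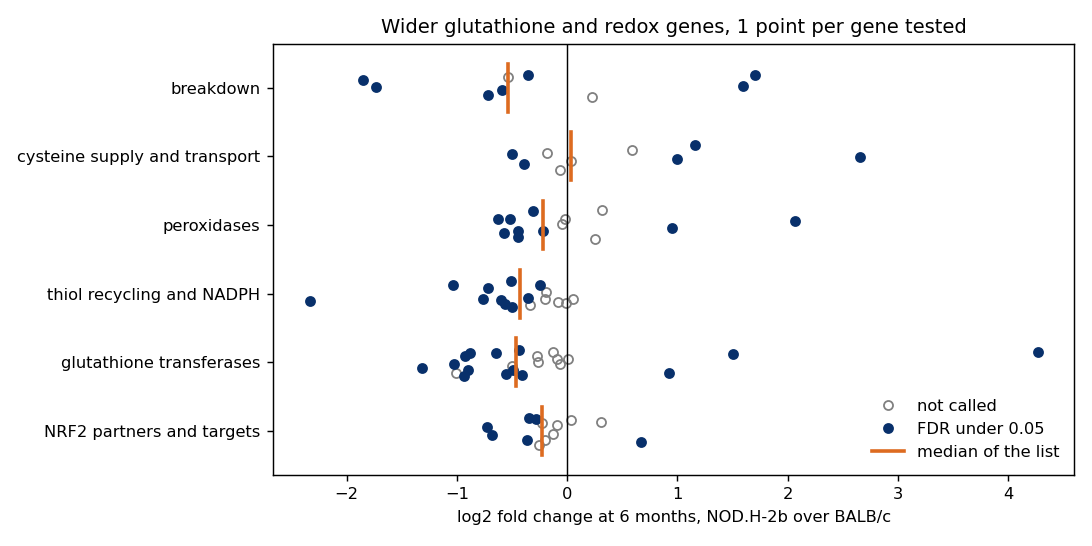
Strain difference at 6 months (log2 fold change of NOD.H-2b over BALB/c) of the 82 wider genes tested, 1 point per gene, in 6 groups with the median of each group as an orange bar. Filled points had an FDR under 0.05. Thiol recycling and NADPH holds 10 lower and 0 higher genes (3 and 6 relative to the median of the epithelial list, 6 and 2 by its geometric mean), and Mgst2 is the rightmost point at 4.27.

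Of the 13 other peroxidases and superoxide dismutases tested, 3 were higher and 5 lower at 2M, 2 and 5 at 4M, and 2 and 7 at 6M (list median −0.22 at 6M). At 6M the epithelial scaling by the median gave 6 higher and 0 lower, and by the geometric mean 2 and 2. Prdx6, a peroxiredoxin that uses glutathione, was lower at each age (−0.65 ± 0.06 at 2M, edgeR FDR = 7.7e-06, and −0.57 ± 0.08 at 6M, edgeR FDR = 0.00024), as was Gpx4, which protects membranes from lipid peroxides (−0.19 ± 0.05, −0.57 ± 0.12 and −0.63 ± 0.10). Relative to the median of the epithelial list neither was called at 4M or 6M (−0.05 ± 0.08 for Prdx6 and −0.11 ± 0.10 for Gpx4 at 6M). By the list's geometric mean neither was called at 4M, but both were called lower at 6M (−0.25 ± 0.10, edgeR FDR = 0.040, for Prdx6 and −0.32 ± 0.12, edgeR FDR = 0.034, for Gpx4). Sod3, the extracellular superoxide dismutase, was higher, with 0.707 to 0.844 CPM in BALB/c 2M and 2.20 to 2.86 CPM in NOD.H-2b 2M (1.66 ± 0.21, edgeR FDR = 9.8e-05) and 2.07 ± 0.23 at 6M (edgeR FDR = 4e-05). Prdx4, the peroxiredoxin of the endoplasmic reticulum, was also higher at each age (0.58 ± 0.17, 0.72 ± 0.18 and 0.95 ± 0.19).

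In the breakdown group 9 of 12 genes could be tested, of which 1 was higher and 2 lower at 2M, 2 and 4 at 4M, and 2 and 5 at 6M (list median −0.54 at 6M). The 2M counts are near the shares over all genes. At 6M the epithelial scaling by the median gave 3 higher and 2 lower, and by the geometric mean 2 and 1. Ggt5, the relative of Ggt1 that also acts on leukotrienes, went the other way from it. It stood at 0.653 to 1.06 CPM in BALB/c 2M and at 1.59 to 2.15 CPM in NOD.H-2b 2M (1.22 ± 0.25, edgeR FDR = 0.0024) and was higher by 1.59 ± 0.24 at 6M (edgeR FDR = 0.00034). Ggt7, outside the naming rule and with only 4 to 46 counts per mouse, was called lower at 6M (−1.73 ± 0.43, edgeR FDR = 0.0069). At 2M and 4M Ggt7 was not called (edgeR FDR = 0.35 and 0.66). Oplah, which opens the 5-oxoproline ring formed in glutathione breakdown, was lower at each age (−0.42 ± 0.11, −0.82 ± 0.17 and −0.72 ± 0.13), with its calls at 4M and 6M lost relative to the median of the epithelial list (edgeR FDR = 0.053 and 0.30). By the list's geometric mean the 4M call stood (edgeR FDR = 0.026) and the 6M call was lost (edgeR FDR = 0.084).

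Of the 9 genes of cysteine supply and transport tested, 3 were higher and 2 lower at 2M, 2 and 2 at 4M, and 3 and 2 at 6M (list median 0.04 at 6M). These counts are near the shares over all genes. At 6M the epithelial scaling by the median gave 6 higher and 0 lower, and by the geometric mean 5 and 0. Cbs, the first enzyme of transsulfuration, was at 1.36 to 1.49 CPM in BALB/c 2M and 7.89 to 17.1 CPM in NOD.H-2b 2M (3.05 ± 0.35, edgeR FDR = 0.00095), and at 2.66 ± 0.23 at 6M (edgeR FDR = 1.5e-05). Abcc1, an exporter of glutathione conjugates, was higher by 0.88 ± 0.13 at 2M and 1.16 ± 0.12 at 6M (edgeR FDR = 0.00024 and 3.3e-05).

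Of the 13 NRF2 partners and targets, 3 were higher and 6 lower at 2M, 1 and 7 at 4M, and 1 and 5 at 6M (list median −0.23 at 6M). The share higher at 2M is close to that over all genes. At 6M the epithelial scaling by the median gave 6 higher and 0 lower, and by the geometric mean 2 and 0. Fth1 and Ftl1, the ferritin chains, were lower at each age (−0.47 ± 0.05, −0.40 ± 0.07 and −0.36 ± 0.08 for Fth1, and −0.30 ± 0.04, −0.38 ± 0.07 and −0.34 ± 0.07 for Ftl1), but relative to the epithelial list only the 2M calls stood and the 6M values were 0.16 ± 0.08 for Fth1 and 0.18 ± 0.08 for Ftl1. Mafk, a small MAF partner of NRF2, was higher at each age (0.54 ± 0.09, 0.37 ± 0.13 and 0.67 ± 0.09). Scaling to the median of the epithelial list moved the median of all genes to −0.07 at 2M, 0.43 at 4M and 0.52 at 6M, and the genes named here as higher at all 3 ages (Hpgds, Sod3, Prdx4, Ggt5, Cbs, Abcc1 and Mafk) were called higher under it as well. By the list's geometric mean Prdx4 (0.29 ± 0.19, edgeR FDR = 0.20) and Mafk (0.24 ± 0.10, edgeR FDR = 0.055) were not called at 2M.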

How the data were processed

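Total RNA of 1 lacrimal gland per mouse (capsule removed, RIN over 8 per the labels) was depleted of ribosomal RNA and sequenced in paired ends. Per the authors, adapters were removed with cutadapt, STAR placed the reads on GRCm38 and HTSeq summed them by gene. These deposited raw counts were used here. Neither the annotation release, nor strandedness, nor the treatment of multiply matching reads was given in the sources used here. The deposited log2 normalized values were not used. The file's name column gave 9 of the 10 genes and the Ensembl identifier the other.

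Counts were fitted with edgeR 4.0.16 in R 4.3.3 (TMM, filterByExpr, robust quasi-likelihood F test, Benjamini-Hochberg over all genes tested, called at an FDR under 0.05), on the 6 mice of each comparison or, for strain by age, on all 18. The SE is the log2 fold change over the root of F. CPM are counts over TMM effective library sizes of the 18 mice. Genes like Ggt1 were ranked by Pearson correlation among genes with a mean log2 CPM of at least 3 (prior count 2). Named genes were the 10 members, the 5 genes most like Ggt1 and, from each wider list, up to 2 each way with the largest mean change among genes called in the same direction at all 3 ages. The members, lists and rules were chosen with earlier results of these data known. Totals per mouse were 49480781 to 103936830, and replicates differed by more than counting error (chi-square per gene of 17.7 to 91.1), so 3 mice per group set the precision.

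Alternatives were DESeq2 1.42.0 (size factors in edgeR, and its Wald test), upper quartile scaling, scaling to the epithelial list, 2 other count filters, a fit of all 18 mice or of 12 mice of 2M and 6M, the replicate number as a block, and each mouse left out. The test steps were tested on simulated data.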

Additional observations from a re-analysis of the deposited data

Results flagged for a closer look

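The change from 2M to 6M differed between the strains, by a test of the difference itself in 18 mice, for 3 of the 9 tested genes. Nfe2l2 stood at 0.52 on the log2 scale (NOD.H-2b change minus BALB/c change, edgeR FDR = 0.012), from −0.24 ± 0.08 for BALB/c and 0.26 ± 0.09 for NOD.H-2b, neither of which passed on its own (edgeR FDR = 0.086 and 0.052). Gss stood at −0.47 (edgeR FDR = 0.012), from −0.02 ± 0.08 and −0.49 ± 0.09. Gsr stood at −0.44 (edgeR FDR = 0.0068), from 0.05 ± 0.06 and −0.40 ± 0.08. The direction of Nfe2l2 was the same under each scaling tried, whereas that of Gss and Gsr turned under both epithelial scalings. With 3 mice per group, samples far from their group could not be screened.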

How the results depend on the processing

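Under DESeq2 size factors, upper quartile scaling, the other filters, the Wald test and the fits of more or fewer mice, no called direction among the 10 genes turned, and the calls of Gss at each age, of Gpx1 at 2M and 6M, and of Gsr, Gclm and Nfe2l2 at 6M stood. Counts of called genes among the 9 that moved by over 1.5 times were BALB/c 2M to 6M (2 with no filter, 1 with the Wald test), BALB/c 4M to 6M (0 in a fit of all 18 mice) and NOD.H-2b 4M to 6M (2 in that fit). Smaller moves were those for NOD.H-2b 2M to 6M, from 4 to 5 (DESeq2 size factors, upper quartile, 10 counts in every sample) or 6 (no filter, all 18 mice) with Nfe2l2 and then Gpx1, for the strains at 4M to 5 (no filter, all 18 mice) or 3 (10 counts), and for BALB/c 2M to 4M to 2 (all 18 mice). Leaving out each mouse gave 1 to 4 genes for the strains at 4M, 1 to 3 for BALB/c 2M to 4M, 0 to 1 for BALB/c 4M to 6M, 0 to 2 for BALB/c 2M to 6M and 0 to 1 for NOD.H-2b 2M to 4M, 8 to 24 wider genes for strain by age, and −2.13 to −1.91 on the log2 scale for Ggt1, strain by age, 2M to 6M. Replicate numbers did not pair the mice (45 same-number pairs, r of −0.30 to 0.30, median 0.011, 3 over 0.1, and 7 of 18 mice closest to their own number). With the replicate number as a block 0 genes were called for NOD.H-2b 2M to 4M (Gclm FDR = 0.051) and 1 for NOD.H-2b 4M to 6M, and Gpx3 lost its call for NOD.H-2b 2M to 6M (FDR = 0.051).

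The scaling to the epithelial list mattered most. It moved the median of all genes by its construction, and no other cause of the changes was tested. In its planned form (geometric mean of the list, in which Cldn4, nearly absent from BALB/c, weighs heavily) 6, 1 and 3 genes were called between the strains at 2M, 4M and 6M, 7 and 4 for BALB/c 2M to 4M and 4M to 6M, 3 for NOD.H-2b 2M to 4M, 6 for NOD.H-2b 2M to 6M and 5 for strain by age. With the list's median, chosen after seeing the data, 3, 3 and 4 were called between the strains, 3 for BALB/c 4M to 6M, 3 for NOD.H-2b 2M to 4M, 5 for NOD.H-2b 2M to 6M and 5 for strain by age. Of the wider genes the planned form called 25 at 4M, 30 at 6M and 37 for strain by age, and the median form 46 for strain by age. Among all called genes the share higher in NOD.H-2b moved from 54.9% to 84.0% (planned) and 90.7% (median) at 4M, from 52.6% to 81.0% and 89.97% at 6M and from 43.6% to 98.1% and 98.4% for strain by age.

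Ggt1 kept its direction between the strains and in BALB/c. Because the gene was selected for this pattern, these values and those with each mouse left out describe the pattern and do not support it. Its log2 values under the planned form were −1.55 at 2M, −2.93 at 6M, 0.94 for BALB/c 2M to 4M, 0.71 for BALB/c 4M to 6M, 0.46 for NOD.H-2b 2M to 4M, 0.28 for NOD.H-2b 2M to 6M and −1.37 for strain by age, and under the median form −1.33 at 2M, −1.89 at 4M, −2.73 at 6M, 0.43, 0.27 and −1.35 for the last 3 comparisons.

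Directions turned as follows where a value was called with TMM or with an epithelial scaling, planned form first. Further values without a call changed sign, among them Gsr, Gss, Nfe2l2 and Slc7a11 for NOD.H-2b 2M to 4M. For the strains at 2M, Gclc was −0.25. At 4M, Gsr was 0.037 and 0.17 and Gpx1 0.013 and 0.15, and by the median Gclm was 0.10. At 6M, Gclm was 0.0064 and 0.21, and by the median Gpx1 was 0.052 and Gclc 0.52. For BALB/c 2M to 4M, Gpx1 was −0.18. For NOD.H-2b 2M to 6M, Gclm was 0.29 and 0.29, Gss 0.14 and 0.13, Gsr 0.23 and 0.22 and Gpx1 0.41 and 0.40. For strain by age, Gclc was 0.56 and 0.60, Gclm 0.44 and 0.47, Gss 0.14 and 0.17, Gsr 0.17 and 0.20 and Gpx1 0.44 and 0.47. The 3 ratios kept their direction and call with the median over the ages and without any one mouse (exact p of 0.00025 to 0.020). By Spearman correlation 2 of the 5 genes most like Ggt1 were shared. Depth limits Gpx2, at 15 to 65 counts.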

Other observations

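Keap1, which holds NRF2 in the cytosol, Nqo1 and Hmox1, commonly used as readouts of NRF2 activity, Srxn1, which repairs peroxiredoxins, and G6pdx, the entry enzyme of the pentose phosphate pathway, are in the wider lists but outside the naming rule, and were chosen after their values were seen. Srxn1 stood at 14.0 to 14.8 CPM in BALB/c 2M and 13.9 to 15.7 CPM in NOD.H-2b 2M, and at 15.1 to 21.0 CPM against 7.08 to 9.33 CPM at 6M, so the strains overlapped at 2M and were apart at 6M (strain by age −1.12 ± 0.17, edgeR FDR = 0.0011). G6pdx went the same way, with 32.7 to 37.7 CPM against 32.0 to 40.8 CPM at 2M and 36.8 to 43.2 CPM against 26.3 to 27.5 CPM at 6M (strain by age −0.57 ± 0.14, edgeR FDR = 0.010). Hmox1 was lower in NOD.H-2b at 6M (−0.73 ± 0.12, edgeR FDR = 0.00072) and Keap1 too (−0.28 ± 0.07, edgeR FDR = 0.0056). Nqo1 was low in both strains, at 0.26 to 0.711 CPM over all mice, and its difference at 6M was −0.09 ± 0.36 (edgeR FDR = 0.85). Relative to the median of the epithelial list, Srxn1 was still lower at 6M (−0.52 ± 0.13, edgeR FDR = 0.0066) and in strain by age (−0.49 ± 0.14, edgeR FDR = 0.0080). Under that scaling G6pdx (0.01 ± 0.09, edgeR FDR = 0.93, with 0.08 ± 0.13 for strain by age) and Hmox1 (−0.20 ± 0.16, edgeR FDR = 0.28) were not called at 6M, and Keap1 turned (0.24 ± 0.09, edgeR FDR = 0.043). By the list's geometric mean Keap1 was not called at 6M (0.04 ± 0.12, edgeR FDR = 0.83).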
